A study of Mus musculus with 16 samples.

Results

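Peaks of 4 histone modifications were examined at 6 interferon-induced genes, Ifit1, Ifit2, Ifit3, Cxcl9, Cxcl10 and Isg15, in macrophages taken from ischemic mouse muscle at 4 and 2 days post injury (dpi). The genes were chosen by name, and every peak overlapping 1 of 3 windows of the GRCm39 build was taken as a member: 110 kb of chromosome 19 around Ifit2, Ifit3 and Ifit1 (Ifit window), 45 kb of chromosome 5 around Cxcl9 and Cxcl10 (Cxcl window), and 20 kb of chromosome 4 around Isg15 (Isg15 window). The outermost peaks found in them span chr19:34526368-34621348, chr5:92478880-92504109 and chr4:156276250-156291593. This gave 107 of the 320508 peaks that the 16 libraries hold on the 21 chromosomes, and 21 of the 107 were peaks of lactylated lysine 18 of histone H3 (H3K18la).

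Each library is a CUT&Tag profile, made by tethering a transposase through an antibody to nucleosomes that carry a mark, and the deposited lists give each peak with its summed (total) and highest coverage. The marks were H3K18la, H3K4me3, H3K27ac and H3K27me3, each at 4 dpi and at 2 dpi with 2 libraries per group, which makes 8 groups. All groups come from C57BL6J wild type male mice of 8 to 12 weeks whose femoral artery was ligated and excised, and from CD45+CD11b+F4/80+CD64+ cells sorted from the calf of the ischemic limb. There is no uninjured group, no genotype contrast and no input library, the labels do not say how many mice went into a library, and the sorted gate can hold macrophages of more than a single state. Sequencing depth is unknown and the lists were not scaled to each other, so a peak is described here by its percentile, the percent of its own list's peaks with a total signal no higher than its own. The lists held between 12060 and 35971 peaks. The H3K27ac library of 4 dpi replicate 1 stood apart, with a median peak width of 4250 bp against 1218 to 1718.5 bp in the other 3 H3K27ac libraries and 7.52% of the chromosomes covered. Its description carries another code than those of the other H3K27ac libraries, and results that rest on it are given with and without it.

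Interferons signal through JAK kinases to STAT and IRF factors, which bind interferon-stimulated response elements (ISRE) or gamma-activated sites (GAS) near the start of their target genes. Ifit1, Ifit2 and Ifit3 encode tetratricopeptide repeat proteins that bind viral RNA or act with each other, Isg15 encodes a ubiquitin-like modifier, and Cxcl9 and Cxcl10 encode chemokines that attract T cells through CXCR3. H3K4me3 marks promoters, H3K27ac marks active promoters and enhancers, and H3K27me3 is the mark of Polycomb silencing, while H3K18la is a mark linked to lactate metabolism.

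The promoters of the members were read first, because they carry the elements through which these genes are known to be induced. The 250 bases upstream of each RefSeq start (GRCm38.p6 sequences, all 6 genes matched, 2 starts for Ifit2) were searched on both strands for the ISRE core GAAANNGAAA, the GAS core TTCNNNGAA and the NF-κB consensus. An ISRE core was found for 4 of the 6 genes, against 2.98% of 32841 promoters of that length. The 4 promoters that hold it are shown with the ISRE core in capitals, on whichever strand it lies, since these sequences separate Ifit1, Ifit3, Cxcl10 and Isg15 from Ifit2 and Cxcl9 in this search.
Ifit1: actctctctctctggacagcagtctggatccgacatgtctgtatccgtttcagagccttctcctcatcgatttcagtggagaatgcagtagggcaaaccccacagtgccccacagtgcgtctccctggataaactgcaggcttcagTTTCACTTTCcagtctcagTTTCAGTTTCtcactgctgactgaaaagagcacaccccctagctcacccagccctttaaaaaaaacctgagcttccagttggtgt
Ifit3: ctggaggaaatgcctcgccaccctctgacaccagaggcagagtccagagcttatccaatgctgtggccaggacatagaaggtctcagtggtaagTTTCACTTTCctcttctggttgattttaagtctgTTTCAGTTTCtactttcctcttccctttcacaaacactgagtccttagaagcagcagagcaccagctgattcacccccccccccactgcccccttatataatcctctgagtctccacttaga
Cxcl10: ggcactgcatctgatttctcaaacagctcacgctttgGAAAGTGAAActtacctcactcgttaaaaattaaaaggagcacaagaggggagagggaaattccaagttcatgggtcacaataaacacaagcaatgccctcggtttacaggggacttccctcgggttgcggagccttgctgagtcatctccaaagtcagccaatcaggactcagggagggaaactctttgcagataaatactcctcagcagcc
Isg15: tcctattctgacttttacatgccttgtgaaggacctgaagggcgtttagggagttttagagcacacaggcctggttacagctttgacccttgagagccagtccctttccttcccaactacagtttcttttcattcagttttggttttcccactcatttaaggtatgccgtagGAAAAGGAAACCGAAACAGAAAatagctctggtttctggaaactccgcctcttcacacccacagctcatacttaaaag
Counted back from the start, the reverse-strand cores lay from -104 to -95 and from -85 to -76 in Ifit1, and from -156 to -147 and from -122 to -113 in Ifit3, and the capitals of the first core are the same 10 letters in both genes, as are those of the second. Cxcl10 had a single forward core from -213 to -204. Isg15 had 3 forward cores that overlap each other between -78 and -57. Neither start of Ifit2 and no stretch upstream of Cxcl9 held the core. The GAS core was found for 1 of 6 genes, Ifit2, against 7.02% of promoters, and the NF-κB consensus for 2 of 6, Ifit2 and Cxcl10, against 7.25%, the Ifit2 match overlapping its GAS core. A match is a description of the letters only. The reference sequences and the peaks belong to different builds, so no peak was placed on an individual promoter.

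In RefSeq's gene order the Ifit window holds Ifit2, Ifit3, Ifit1bl1, Ifit3b, Ifit1bl2 and Ifit1, the Cxcl window Cxcl9 and Cxcl10 next to Cxcl11, and the Isg15 window Isg15 between Agrn and Perm1. To follow positions through all libraries, the H3K4me3 peaks of 4 libraries were merged within the windows, which gave 11 sites, numbered here by rising coordinate: 5 in the Ifit window, 3 in the Cxcl window and 3 in the Isg15 window. The same merging over the chromosomes gave 19426 H3K4me3 regions, which serve as the background for each count over the 11 sites.

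**Figure D1:**
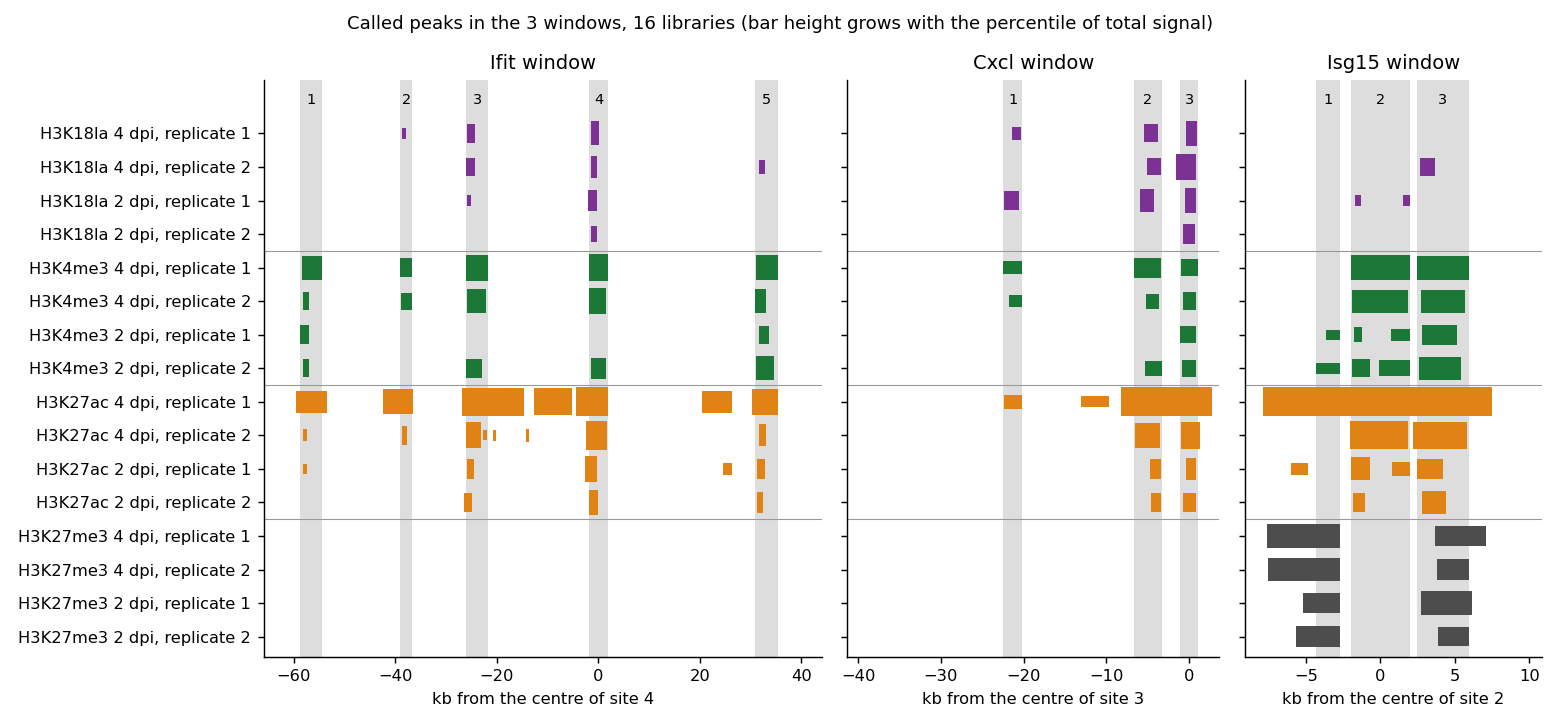
Called peaks in the Ifit, Cxcl and Isg15 windows, 1 row for each of the 16 libraries (colour: mark), against distance in kb from the centre of a site in each window. Grey bands are the 11 numbered sites, and bar height grows with the percentile of total signal. H3K27me3 bars appear only in the Isg15 window, on either side of site 2, and H3K18la bars fall on the numbered sites.

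H3K18la was most regular at the Cxcl and Ifit windows. Of the 21 H3K18la peaks in the windows, 9 lay in the Ifit window, 9 in the Cxcl window and 3 in the Isg15 window, 12 of them in the 4 dpi libraries and 9 in the 2 dpi libraries. Their percentiles had a median of 41.2 and a highest value of 77.0. Of the 21, 18 overlapped an H3K27ac peak in both libraries of the same time point, against 69.6% of all 75857 H3K18la peaks. An H3K4me3 peak was met in both libraries by 16 of the 21, against 41.2%, and an H3K27me3 peak by 0, against 3.74%. The site with the highest H3K18la percentiles was Cxcl site 3 (chr5:92500215-92502442), where percentiles were 71.5 and 77.0 at 4 dpi and 76.7 and 52.2 at 2 dpi. The 2 times overlapped there. The position of highest H3K18la signal at this site differed by 42 bp between the 4 libraries, and those of H3K4me3 and H3K27ac differed by 37 and 66 bp, with medians of 342.5, 319 and 324 bp past the site's centre. The 3 marks thus had their highest signal at nearly the same base position at this site.

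Ifit site 4 (chr19:34584103-34587782) was the other site with an H3K18la peak in 4 of 4 libraries. Its H3K18la percentiles were 69.4 and 62.5 at 4 dpi and 58.2 and 28.8 at 2 dpi, so both 4 dpi libraries were above both 2 dpi libraries. Ifit site 3 (chr19:34559891-34564224) had percentiles of 42.2 and 41.2 at 4 dpi, against 7.9 in 2 dpi replicate 1 and no peak in 2 dpi replicate 2. Ifit sites 2 and 5 had an H3K18la peak in a single 4 dpi library each, at percentiles of 8.4 and 19.5, and Ifit site 1 had none. Over the 11 sites, H3K18la was called in both 4 dpi libraries at 4 and in both 2 dpi libraries at 2, against 35.7% and 36.9% of the H3K4me3 regions of the chromosomes. The list of 2 dpi replicate 2, which had 1 peak in each of the Ifit and Cxcl windows, was the shortest of the H3K18la lists with 15190 peaks, and that of 2 dpi replicate 1 the longest with 27578.

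Cxcl site 2 (chr5:92494625-92498005) had H3K18la percentiles of 40.0 and 34.8 at 4 dpi, against 61.5 in 2 dpi replicate 1 and no peak in 2 dpi replicate 2. Cxcl site 1 had an H3K18la peak at 11.7 in 4 dpi replicate 1 and at 40.3 in 2 dpi replicate 1, and none in the other 2 libraries. At both sites 2 dpi replicate 1 was above both 4 dpi libraries, and 2 dpi replicate 2 had no peak. The Isg15 window, the shortest, had the fewest H3K18la peaks: a peak at the 43.1 percentile in 4 dpi replicate 2, peaks at 7.4 and 2.2 in 2 dpi replicate 1, and none in 4 dpi replicate 1 or 2 dpi replicate 2.

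Counted over the 11 sites, H3K18la was called in 4 of 4 libraries at 2 sites, against 30.6% of the H3K4me3 regions of the chromosomes. Both 4 dpi percentiles were above both 2 dpi percentiles at 2 of 11 sites, Ifit sites 3 and 4, against 4.66% of those regions, with a library that has no peak counted as below any with a peak. With ranks by mean signal per base the count was 1, and without 4 dpi replicate 1 or without 2 dpi replicate 1 it was 5 and 4. With a library left out the order is easier to meet, so 5 and 4 cannot be set against the 4.66%. No site had both 2 dpi percentiles above both 4 dpi percentiles. By rank among the H3K18la regions called in all 4 libraries, 2217 of 9325 had both 4 dpi libraries above both 2 dpi libraries. The 2 member regions in that set, at Ifit site 4 and Cxcl site 3, were among the 2217.

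**Figure D2:**
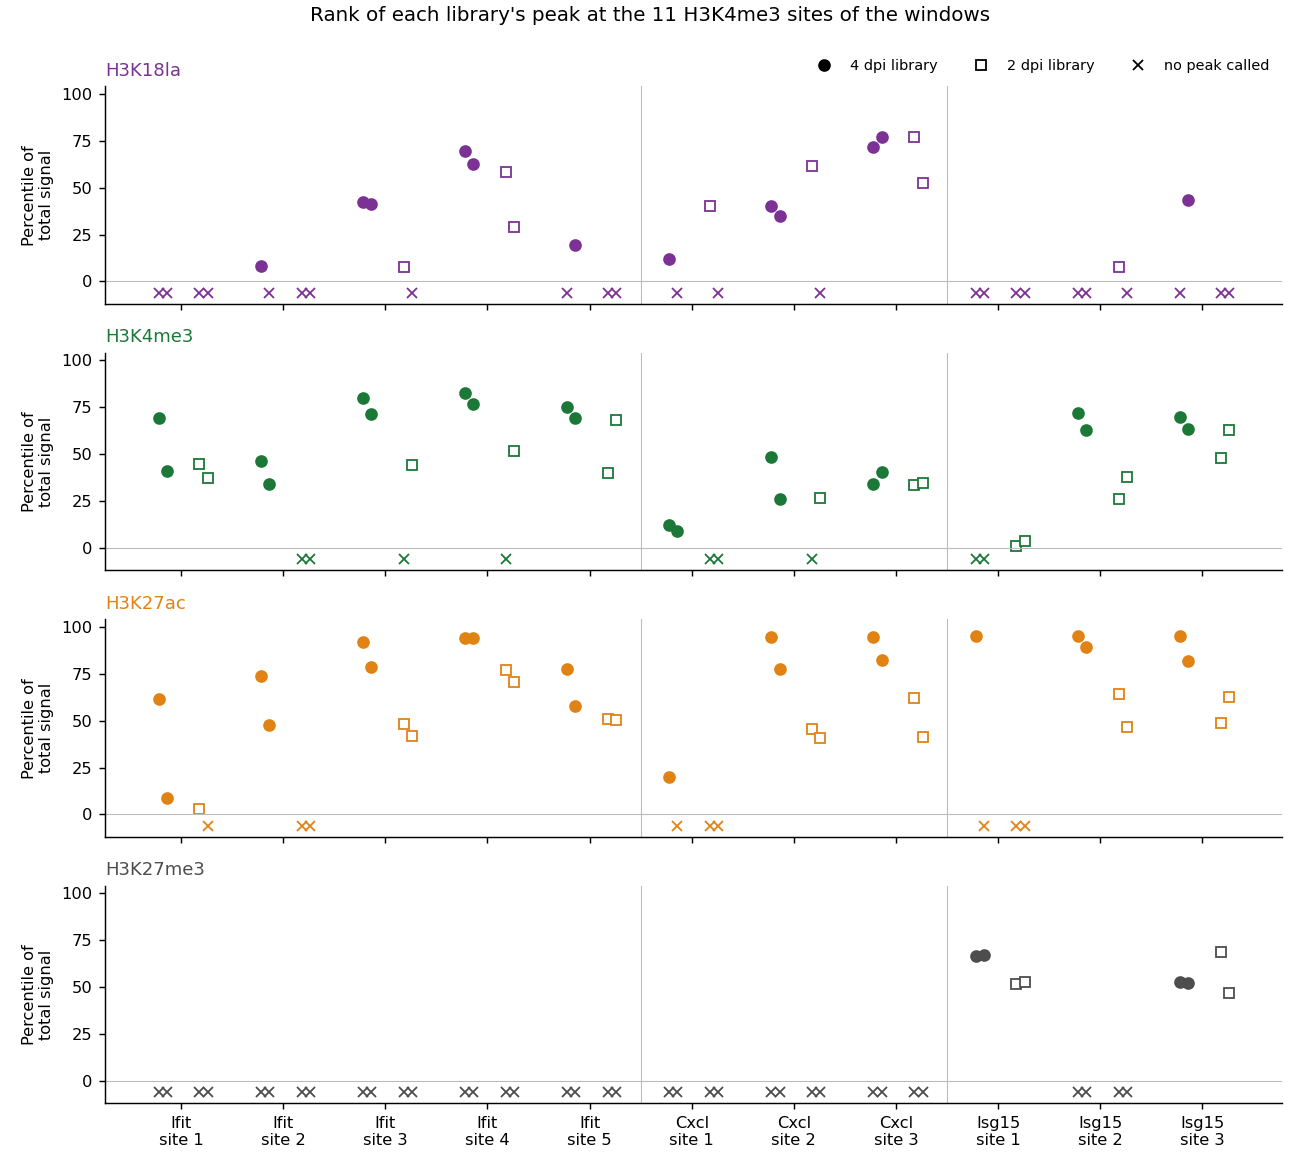
Percentile of total signal (y axis, 0 to 100) of each library's peak at the 11 sites (x axis), 1 panel for each mark, with 4 dpi libraries as filled circles, 2 dpi libraries as open squares and crosses where no peak was called. The H3K27ac circles lie above the squares at 9 of 11 sites, while H3K18la has a point in all 4 libraries only at Ifit site 4 and Cxcl site 3.

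H3K27ac had the most regular difference between the times. Both 4 dpi percentiles were above both 2 dpi percentiles at 9 of 11 sites, against 23.0% of H3K4me3 regions. The count was also 9 without 4 dpi replicate 1, the library with wide peaks, but that order is easier to meet with a library left out. By rank among H3K27ac regions called in all libraries used, 5257 of 16083 met it without that library, against 2813 of 13494 with it. The count of sites was 5 when peaks were ranked by mean signal per base. H3K27ac was called in 4 of 4 libraries at 7 of 11 sites, against 63.6% of regions. At Ifit site 4 the percentiles were 94.1 and 94.3 at 4 dpi and 76.9 and 70.6 at 2 dpi. At Ifit site 3 they were 92.1 and 78.6 at 4 dpi and 48.4 and 41.7 at 2 dpi. At neither site did the times overlap. Ifit site 2 (chr19:34546892-34549311) had H3K27ac percentiles of 73.6 and 47.9 at 4 dpi and no peak at 2 dpi.

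In the chemokine window the H3K27ac percentiles at site 3 were 94.5 and 82.4 at 4 dpi and 61.9 and 41.4 at 2 dpi, and at site 2 they were 94.5 and 77.6 at 4 dpi and 45.6 and 40.6 at 2 dpi. The first value is the same at both sites because a single peak of 11065 bp spans them in 4 dpi replicate 1. At Isg15 site 2 (chr4:156282112-156286117) H3K27ac had percentiles of 94.9 and 89.3 at 4 dpi and 64.1 and 46.4 at 2 dpi. There too 4 dpi replicate 1 held a single peak, of 15344 bp, across sites 1 to 3.

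H3K4me3 was called in 4 of 4 libraries at 5 of 11 sites, against 68.5% of the regions from which the sites come. Both 4 dpi percentiles were above both 2 dpi percentiles at 7 of 11 sites, against 31.6%. At Ifit site 4 H3K4me3 had percentiles of 82.6 and 76.8 at 4 dpi, against 51.9 in 2 dpi replicate 2 and no peak in 2 dpi replicate 1. At Ifit site 3 they were 79.7 and 71.4 at 4 dpi, against 44.4 in 2 dpi replicate 2 and again no peak in 2 dpi replicate 1. Ifit site 2 had 46.6 and 33.9 at 4 dpi and no peak at 2 dpi. Cxcl site 3 had 34.0 and 40.7 at 4 dpi and 33.4 and 34.5 at 2 dpi, so the times overlapped where H3K18la was highest. Isg15 site 2 had 71.9 and 62.9 at 4 dpi and 26.2 and 37.7 at 2 dpi. The strongest H3K4me3 member peaks were thus those of the Ifit window, and the chemokine window ranked lower, with a median of 33.4 over its 9 H3K4me3 peaks against 60.0 over the 16 of the Ifit window.

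H3K27me3 separated the Isg15 window from the other windows. No H3K27me3 peak lay in the Ifit or Cxcl window in any of the 4 libraries, and the nearest lay at least 64.3 kb before and 91.0 kb after the Ifit window and at least 46.8 kb before and 28.9 kb after the Cxcl window. Windows without an H3K27me3 peak are common: 70.5% of tiles as long as the Ifit window and 82.1% of tiles as long as the Cxcl window held none in the same 4 libraries. In the Isg15 window an H3K27me3 peak lay on each side of site 2 in every library. The gap between these peaks was 6.37 and 6.55 kb at 4 dpi and 5.45 and 6.58 kb at 2 dpi, and H3K4me3 and H3K27ac at Isg15 site 2 lay inside it in all 4 libraries of each mark, but for the wide H3K27ac peak of 4 dpi replicate 1. Of the 11 sites, 9 had no H3K27me3 peak in any library, against 82.7% of H3K4me3 regions, and 2 had 1 in 4 of 4 libraries, against 12.2%.

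At Isg15 site 1 (chr4:156279777-156281429) the H3K27me3 percentiles were 66.8 and 67.3 at 4 dpi and 51.8 and 52.8 at 2 dpi. It was the only site of 11 where both 4 dpi percentiles were above both 2 dpi percentiles, against 5.67% of regions. Only 2 of the 11 sites had an H3K27me3 peak in any library, and a site without a peak cannot meet this order. The same holds for the 82.7% of regions without an H3K27me3 peak. Isg15 site 1 was also the site where H3K4me3 went the other way, with no peak at 4 dpi and peaks at the 0.94 and 3.6 percentiles at 2 dpi. At Isg15 site 3 H3K27me3 had percentiles of 52.5 and 52.0 at 4 dpi and 68.8 and 47.1 at 2 dpi, which overlap.

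The share of each window covered by peaks was then compared between H3K18la and each other mark, over the 4 libraries of each mark, both times together. The paper states that H3K18la and the reference marks came from the same samples, so libraries of different marks may share cells or mice. The exact tests below took the libraries as independent and did not use the time. H3K27ac in the Ifit window, for example, averaged 27.9% at 4 dpi and 5.78% at 2 dpi. In the Ifit window H3K18la covered 2.68% ± 1.21 (SD, n = 4), H3K4me3 10.4% ± 5.64, H3K27ac 16.9% ± 18.6 and H3K27me3 0%. In the Cxcl window H3K18la covered 8.22% ± 3.27, H3K4me3 10.1% ± 5.37, H3K27ac 15.2% ± 14.7 and H3K27me3 0%. In the Isg15 window H3K18la covered 2.44% ± 2.83, H3K4me3 33.7% ± 6.17, H3K27ac 38.4% ± 27.6 and H3K27me3 32.9% ± 7.15. H3K18la thus covered less than H3K4me3 and H3K27ac on average in each window.

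The libraries of H3K18la did not overlap with those of H3K27ac or H3K27me3 in the Ifit window, with those of H3K27me3 in the Cxcl window, or with those of any other mark in the Isg15 window. The 2 contrasts with H3K27me3 in the Ifit and Cxcl windows set H3K18la against 0% in every library and restate the absence of H3K27me3 peaks. The 6 contrasts without overlap, of 9, had an exact permutation p of 0.0286, the smallest that 4 against 4 libraries allow, and an adjusted p of 0.0429 (two-sided, Benjamini-Hochberg over 9). That adjusted p depends on how many contrasts stand at the smallest p, and the 2 contrasts against 0% count among the 6. The others were not adjusted without those 2, so it is not shown that they would be under 0.05 without them. The other 3 did not pass: adjusted p was 0.110 for H3K4me3 in the Ifit window, 0.657 for H3K4me3 and 0.643 for H3K27ac in the Cxcl window (exact permutation tests). The lists differ in how much of the chromosomes they cover. When each share was divided by that of the chromosomes, the libraries of 5 of the 6 contrasts still did not overlap, at the same exact permutation p of 0.0286. Their adjusted p was 0.0514, because 5 rather than 6 contrasts then stood at the smallest p the design allows. H3K27ac in the Ifit window overlapped with H3K18la on that scale (exact permutation test, adjusted p 0.193). On that ratio scale H3K18la was higher than H3K4me3 and H3K27ac in the Cxcl window on average, by 0.62 and 2.70, the opposite direction to the covered share. Without the wide H3K27ac library the difference of H3K18la minus H3K27ac in covered share was -4.96 points in the Ifit window, 0.19 in the Cxcl window and -23.2 in the Isg15 window.

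**Figure D3:**
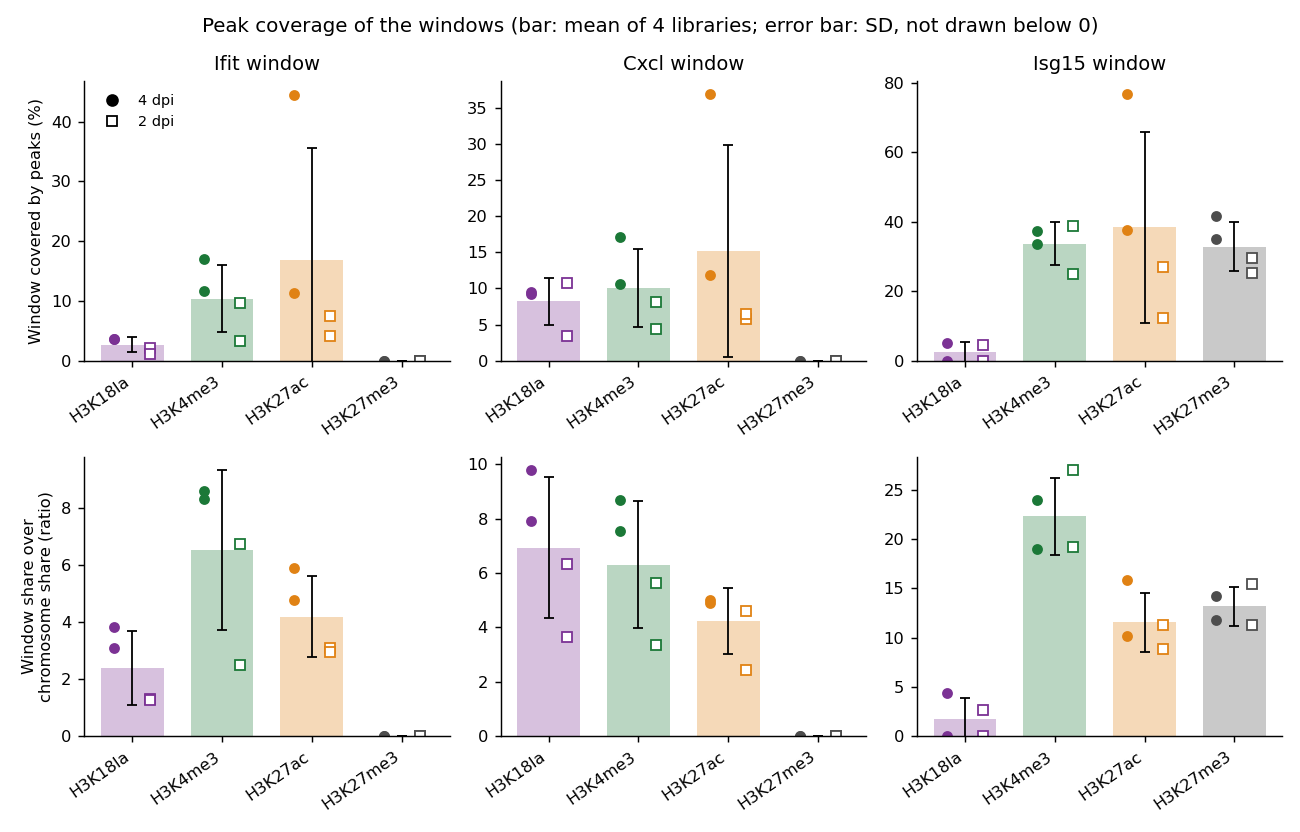
Percent of each window covered by peaks (upper row) and that percent divided by the percent of the chromosomes covered by the same list (lower row, ratio), for the 4 marks in the Ifit, Cxcl and Isg15 windows. Bars are means of 4 libraries with SD, filled circles 4 dpi and open squares 2 dpi, and H3K18la in the Cxcl window reaches ratios of 3.67 to 9.80, against 2.42 to 4.99 for H3K27ac.

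Between the times, the covered share at 4 dpi exceeded that at 2 dpi in every library for H3K18la in the Ifit window, at 3.63% and 3.71% at 4 dpi against 2.20% and 1.20% at 2 dpi. The ratio to the chromosomes was 3.83 and 3.11 at 4 dpi against 1.302 and 1.286 at 2 dpi, so the order was the same on that scale. In the Cxcl window the H3K18la shares were 9.27% and 9.46% at 4 dpi and 10.7% and 3.41% at 2 dpi, which overlap, while the ratios were 9.80 and 7.91 at 4 dpi and 6.35 and 3.67 at 2 dpi, which do not. This order was not particular to H3K18la. For H3K4me3 and H3K27ac, both 4 dpi libraries were above both 2 dpi libraries on both scales in the Ifit and Cxcl windows. In the Ifit window the H3K4me3 shares were 16.9% and 11.6% at 4 dpi and 3.29% and 9.69% at 2 dpi. In the Isg15 window the order held for H3K27ac and H3K27me3, in covered share only. A design of 2 against 2 libraries cannot give an exact permutation p below 0.333, so these values carry no test. In the Isg15 window the H3K4me3 and H3K27me3 shares averaged 35.5% and 38.4% at 4 dpi, against 32.0% and 27.4% at 2 dpi, and on the ratio scale both were lower at 4 dpi on average, at 21.5 and 13.0, against 23.1 and 13.3 at 2 dpi.

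To test the difference between the times with the whole table as reference, limma was run for each mark on the normal score of the rank of total signal within the library, over all regions called in all 4 libraries. None of the member regions tested passed an adjusted p of 0.05 in any mark. A region without a peak in some library was not tested. This left out H3K4me3 at Ifit sites 2, 3 and 4 and Cxcl sites 1 and 2, where peaks were missing at 2 dpi. It also left out Isg15 site 1, which had no H3K4me3 peak at 4 dpi. With regions called in at least 2 libraries, 11 H3K4me3 member regions were tested and 2 passed, against 1825 of 17101 regions. Those of Ifit sites 2 and 3 rose, by 1.32 and 1.499 normal-score units (limma adjusted p 0.0239 and 0.0463). Ifit site 2 entered that fit only through its 4 dpi peaks, and site 3 had no peak in 2 dpi replicate 1. A missing peak took the lowest rank, so the rise at site 2 was largely set by the filter. It gives no separate support for a time difference. For H3K18la 2 member regions could be tested and 0 passed, against 0.118% of 9325 regions. For H3K4me3 it was 0 of 5, against 15.9% of 13298, for H3K27ac 0 of 5, against 0.185% of 13494, and for H3K27me3 0 of 2, against 0.945% of 7515. At an unadjusted threshold of 0.05 the limma counts were 0 H3K18la member regions, against 14.8% of all regions, 0 for H3K4me3, against 32.7%, 4 of 5 for H3K27ac, against 14.0%, and 0 for H3K27me3, against 15.3%. Leaving out the wide H3K27ac library leaves a single 4 dpi library. No count at this threshold is given for that fit, and its shifts follow below.

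The H3K27ac member regions all had positive shifts, against 44.7% of the regions tested, and in 4 of 5 both 4 dpi scores were above both 2 dpi scores, against 20.8%. The largest was the Ifit region holding site 3, which was 1.64 normal-score units higher at 4 dpi (SE 0.38, limma adjusted p 0.0848). The Ifit region holding site 4 followed at 1.04 (SE 0.28, limma adjusted p 0.130), the Cxcl region at 0.99 (SE 0.28, limma adjusted p 0.136), the Isg15 region at 0.69 (SE 0.25, limma adjusted p 0.247) and the Ifit region holding site 5 at 0.49 (SE 0.46, limma adjusted p 0.642). Without the wide 4 dpi library the Cxcl and the Isg15 regions each split into a pair, which gave 7 member regions. Their shifts were then 1.04, 1.03 and 0.10 at Ifit sites 3, 4 and 5, 1.06 and 0.98 at Cxcl sites 2 and 3, and 1.04 and 0.88 at Isg15 sites 2 and 3, and none passed. The Ifit site 3 region passed when the lists were scaled by log2 of total signal over the median (limma adjusted p 0.0168), and the Ifit site 3 and site 4 regions passed as a joint region when peaks within 1000 bp were merged (limma adjusted p 0.0345). Those 2 regions and the Cxcl region also passed with the replicate number as a block (limma adjusted p 0.00634, 0.0224 and 0.0269), although the labels do not say that equal numbers pair the libraries. These settings also called more H3K27ac regions as a whole. Log2 scaling called 223 of 13494, merging 30 of 13078 and the block 581 of 13494, against 25 of 13494 in the main fit.

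For H3K18la the shift was 0.93 at Ifit site 4 (SE 0.44, limma adjusted p 0.350) and 0.51 at Cxcl site 3 (SE 0.35, limma adjusted p 0.512), and neither passed under any of the 11 alternatives. For H3K4me3 the shifts ran between -0.02 at Cxcl site 3 and 0.55 at Ifit site 5 (limma adjusted p 0.156). The H3K4me3 shifts depended on the 2 dpi libraries. Without 2 dpi replicate 1, 7 of 8 member regions had positive shifts, against 50.5% of all regions, with Ifit sites 3 and 4 at 0.90 and 0.85. Those 2 sites could be tested only because the library left out had no peak there. Without 2 dpi replicate 2, 4 of 5 had positive shifts, against 49.9%, with Isg15 sites 2 and 3 at 0.54 each and Ifit site 5 at 0.95. A single 2 dpi library is left in each of these fits, so only shifts are given. The 2 H3K27me3 regions flanking Isg15 site 2 had shifts of 0.23 for the first and -0.53 for the second, with limma adjusted p of 0.620 and 0.410.

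**Figure D4:**
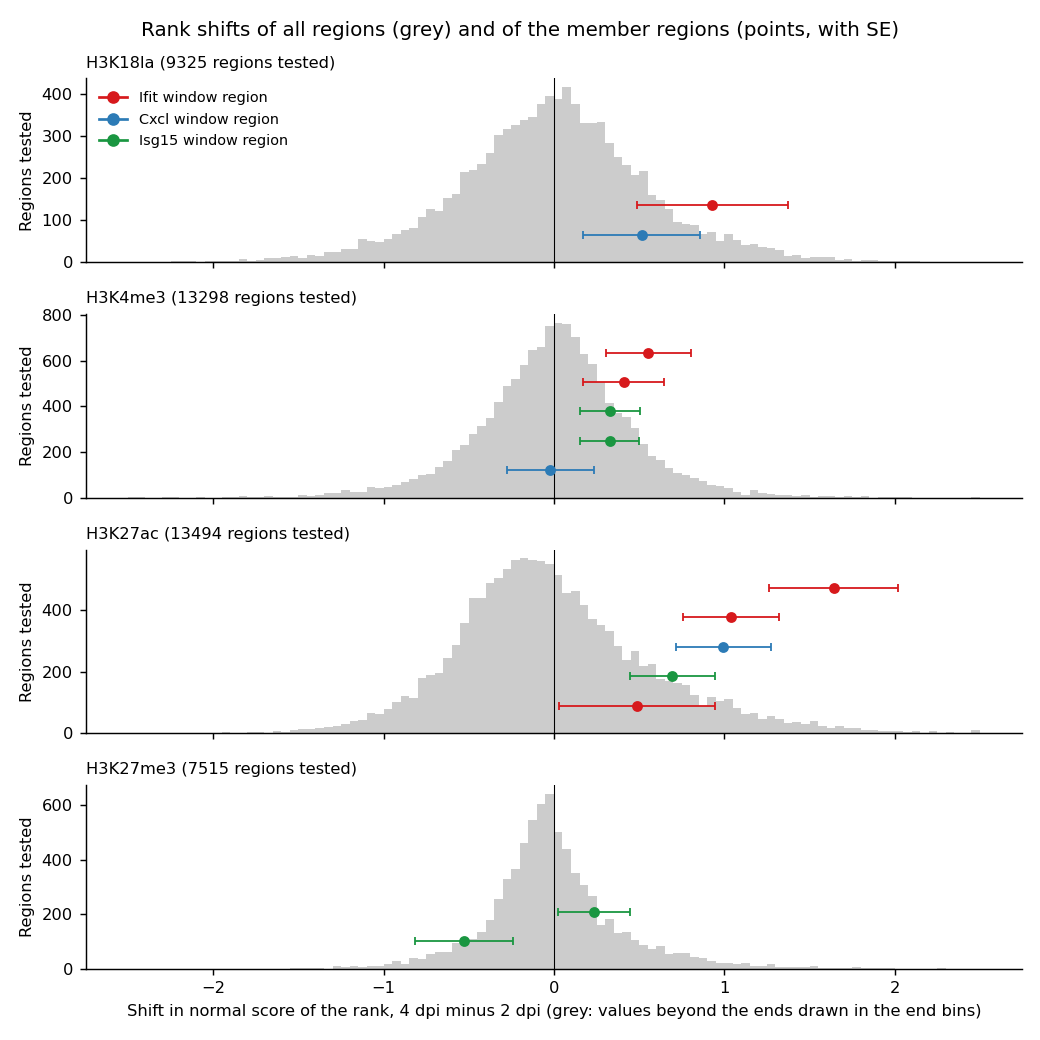
Histograms of the rank shift, 4 dpi minus 2 dpi in normal-score units (x axis), over all regions tested (y axis: number of regions), 1 panel for each mark, with member regions as points with SE, coloured by window. The 5 H3K27ac points run from 0.49 to 1.64, to the right of the centre of the grey distribution, and no point in any panel passed the adjusted threshold.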

How the data were processed

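The CUT&Tag peak lists of 16 libraries were used as deposited. Per the labels the authors trimmed reads with Trim Galore 0.6.6, aligned them with Bowtie2 2.4.4, and handled the files with SAMtools 1.13 and bedtools 2.30. They called stringent peaks in each library alone with SEACR 1.3, keeping the top 0.01 share by signal. The deposited total and maximum signal are sums and heights of coverage, not normalized between libraries. File names and labels give GRCm39, and 255 peaks over all 16 libraries end beyond the GRCm38 chromosome ends, so no GRCm38 coordinate was used. For H3K27me3 at 4 dpi, file names and labels number the replicates differently, and the labels were followed. Peaks off the 21 chromosomes were left out.

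Members and lists were chosen with earlier results of these data known. The named genes are the 6 members and their neighbours in RefSeq order. Promoter percentiles, the interferon pathway list, cell type markers and the genes of most similar pattern need GRCm39 gene positions and were not analysed here, so the macrophage label was not checked. The 11 sites were defined after the files were examined. Regions were tested with limma 3.58.1 in R 4.3.3 (trend and robust, Benjamini-Hochberg over all regions of a mark), and coverage with exact permutation tests in SciPy 1.17.1 under Python 3.11.15. The limma step was also run on simulated data with independent noise of a single spread and large planted changes. That run does not show how the step performs at the member shifts or with libraries of unlike peak width. The study's methods call the 2 libraries of a group biological replicates. The labels do not give the mice behind each library.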

Additional observations from a re-analysis of the deposited data

Results flagged for a closer look

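At Isg15 site 1 the time difference of H3K27me3 and that of H3K4me3 ran in opposite directions in every library. The mean percentile of H3K27me3 was 14.7 points higher at 4 dpi than at 2 dpi, and for H3K4me3, with a library without a peak counted as 0, the difference of 4 dpi minus 2 dpi was -2.28 points. The difference between the marks was not tested, and the H3K4me3 peaks at 2 dpi were at the 0.94 and 3.6 percentiles of their lists.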

How the results depend on the processing

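Peak lists carry no depth, so a missing peak says only that it was not called at that library's threshold, and 2 libraries per group limit every test of time. For covered share, H3K18la minus the other mark, the ratio to the chromosomes gave -1.81 (H3K27ac, Ifit), 2.38 (H3K27me3, Ifit), 0.62 and 2.70 (H3K4me3 and H3K27ac, Cxcl, both reversed), 6.93 (H3K27me3, Cxcl), and -20.5, -9.77 and -11.4 (H3K4me3, H3K27ac and H3K27me3, Isg15). The contrasts with H3K27me3 in the Ifit and Cxcl windows and all 3 in the Isg15 window kept the smallest p possible, and their adjusted p of 0.0514 (exact permutation tests) reflects fewer contrasts at that p. With the 12000 strongest peaks of each list the differences were -8.34 (H3K4me3, Ifit, now past it), -8.98 (H3K27ac, Ifit, no longer past it) and 1.82 (H3K4me3, Cxcl, reversed). With peaks above the median they were -13.7 and 0.99 (H3K27ac and H3K27me3, Ifit), 4.72 for H3K4me3 (reversed) and 4.72 for H3K27me3 (Cxcl), and -21.3, -32.2 and -30.3 (H3K4me3, H3K27ac and H3K27me3, Isg15). There 5 contrasts again stood at that smallest p, and H3K27me3 in the Ifit window and H3K4me3 in the Isg15 window did not (exact permutation tests, adjusted p 0.161 each). Within the times, an alternative added after seeing the data, the H3K27me3 differences were 3.67 and 9.36 at 4 dpi against 1.70 and 7.07 at 2 dpi (Ifit and Cxcl), and in the Cxcl window at 2 dpi those of H3K4me3 and H3K27ac were 0.82 and 0.96, reversed. Leaving out each library gave ranges of -10.1 to -5.51, -18.4 to -4.96 and 2.34 to 3.18 (Ifit; H3K4me3, H3K27ac, H3K27me3), -3.73 to 0.52, -10.2 to 0.19 and 7.38 to 9.82 (Cxcl), and -34.2 to -29.6, -44.7 to -23.2 and -33.0 to -27.5 (Isg15). The sign turned in the Cxcl window without H3K4me3 4 dpi replicate 1 (0.52) and without H3K27ac 4 dpi replicate 1 (0.19), and with 7 libraries none of the 6 called contrasts can pass. The 4 minus 2 dpi difference at Isg15 reversed on the ratio scale, also chosen after seeing the data, for H3K4me3 (-1.58) and H3K27me3 (-0.31).

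Member regions called were 0 in each mark as reported. They became 2 and 1 for H3K4me3 with regions called in at least 2 libraries and with log2 scaling, and 1 and 1 for H3K27ac with peaks merged within 1000 bp and with log2 scaling. Over all regions the same settings called 1825 of 17101 and 1814 of 13298 for H3K4me3, and 30 of 13078 and 223 of 13494 for H3K27ac. Leaving out a library leaves a single library in a time group. For H3K4me3 only the shifts of those fits are given above, and no member region of the other marks was called. With the replicate block 3 H3K27ac member regions were called, the Ifit regions of sites 3 and 4 and the Cxcl region (limma adjusted p 0.00634, 0.0224 and 0.0269). Over all H3K27ac regions the block called 581 of 13494. The difference between the replicates at 4 dpi correlated with that at 2 dpi by -0.065, -0.003, 0.086 and -0.052 for H3K18la, H3K4me3, H3K27ac and H3K27me3. These values cannot show whether same-numbered libraries share a preparation, and the labels do not say. Over all regions the H3K18la calls ran between 0 and 394 (11 as reported), the H3K4me3 calls between 5 and 2776 (2108), the H3K27ac calls between 0 and 581 (25) and the H3K27me3 calls between 0 and 561 (71). Log2 scaling moved the median shift of all regions to -0.31 for H3K18la and 0.24 for H3K27me3. Shifts that reversed were those of H3K4me3 at Isg15 site 2 (-0.15 by maximum and -0.068 by mean signal), of H3K4me3 at Cxcl site 3 (0.36 by mean signal, 0.030 by log2, and -0.22 to 0.24 without a library), of H3K27ac at Isg15 (-0.073 by maximum signal) and of the first H3K27me3 region at Isg15 (-0.23 by mean signal).

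Sites with both 4 dpi percentiles above both 2 dpi percentiles became 1, 5 and 0 for H3K18la, H3K27ac and H3K27me3 by mean signal per base. Leaving out a library gave 2 to 5 H3K18la sites, 8 to 9 H3K4me3 sites, 9 to 11 H3K27ac sites and 1 to 2 H3K27me3 sites. Fewer values then have to be in order, so these counts cannot be set against the shares of regions given above. The planned promoter percentiles and their narrower windows were not run.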
